A study of Homo sapiens with 18 samples.

Results

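The 9 genes EP300, CREBBP, KAT2A, KAT2B, KAT5, KAT6A, KAT6B, KAT7 and KAT8 encode histone acetyltransferases, the enzymes that place acetyl groups on histone tails. They were chosen by name, out of the 19103 protein-coding genes that GENCODE 44 lists on chromosomes 1 to 22 of hg38. For each gene the window was its annotated body plus 10 kb on either side, and every H3K27ac or CTCF peak that shared at least 1 bp with a window was taken. Peaks of the 6 libraries of an antibody that shared at least 1 bp were joined into merged regions. The 9 windows held 82 of the 55382 merged H3K27ac regions and 44 of the 69985 merged CTCF regions.

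The data are ChIP-seq peak lists from HEK293T, a human embryonic kidney line that carries the SV40 large T antigen. CTRL cells were untreated, and VPA cells received valproic acid, which blocks histone deacetylases, at 1 mM over 1 day. The labels name no other difference between the groups. Each treatment was profiled in 3 replicates with an antibody to acetylated lysine 27 of histone H3 (H3K27ac), a mark of active promoters and enhancers, and in 3 with an antibody to CTCF, a zinc finger protein that anchors chromatin loops and boundaries. The labels number the replicates but do not say that they were separate cultures, so the p-values measure only the spread between these samples, and the line was not checked against marker genes because peak lists hold no expression values.

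Histone acetyltransferases fall into families with different partners. p300 (EP300) and CBP (CREBBP) are close paralogs that bind many transcription factors and acetylate lysine 27 of histone H3 at enhancers and promoters. GCN5 (KAT2A) and PCAF (KAT2B) are the alternative catalytic subunits of the SAGA and ATAC coactivator complexes. The MYST family comprises TIP60 (KAT5), which works in chromatin remodelling and DNA repair, MOZ (KAT6A) and MORF (KAT6B), which pair with BRPF scaffolds, HBO1 (KAT7), which acetylates histones H3 and H4, and MOF (KAT8), which acetylates histone H4 in the MSL and NSL complexes. Histone deacetylases, the targets of VPA, remove the same acetyl groups.

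Each CTRL library had 26299 to 29799 H3K27ac peaks and each VPA library 38441 to 40992, while the CTCF lists held 39818 to 58782 peaks in CTRL and 36469 to 55325 in VPA. A peak's level is given here in 2 ways. Its fold enrichment is the number of fragments over the summit against the local background, and the number of fragments over the summit (summit fragments) was recovered from the fold enrichment and its p-value. The background coverage of the libraries was alike, between 3.51 and 3.95 fragments. Replicate 1 stood apart in both treatments. Its local background under the 10000 highest H3K27ac peaks had a median of 49.9 fragments in CTRL and 43.7 in VPA, against 11.3 to 12.3 in replicates 2 and 3, and for CTCF it was 27.1 and 33.3 against 9.67 to 10.8. At the H3K27ac promoters of the 9 genes, replicate 1 had the most summit fragments and the lowest fold enrichment of its treatment, and results are also given for replicates 2 and 3 alone. In a bulk sample, fewer cells or alleles with the mark and less of the mark on each cannot be told apart, and no spike-in set a scale between libraries.

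All 9 genes had an H3K27ac region at their own promoter with a peak in all 6 libraries. The summits were lower in VPA than in CTRL at 8 of the 9 promoters, in each of the 3 replicate numbers, and higher at KAT8 alone. The change was largest at EP300, KAT6B and KAT2B, while KAT2A, KAT7 and KAT5 lay within or above the middle of all promoters. Across all 10228 promoter regions tested, the median log2 change of the summit fragments over background coverage was -0.42. The middle quartiles ran from -0.63 to -0.20, so most promoters were lower and the members are read against a promoter-wide shift. The share of all promoter regions lower in 3 of 3 replicate numbers was not computed, so 8 of 9 has no such background. The median over the 9 was -0.82.

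**Figure D1:**
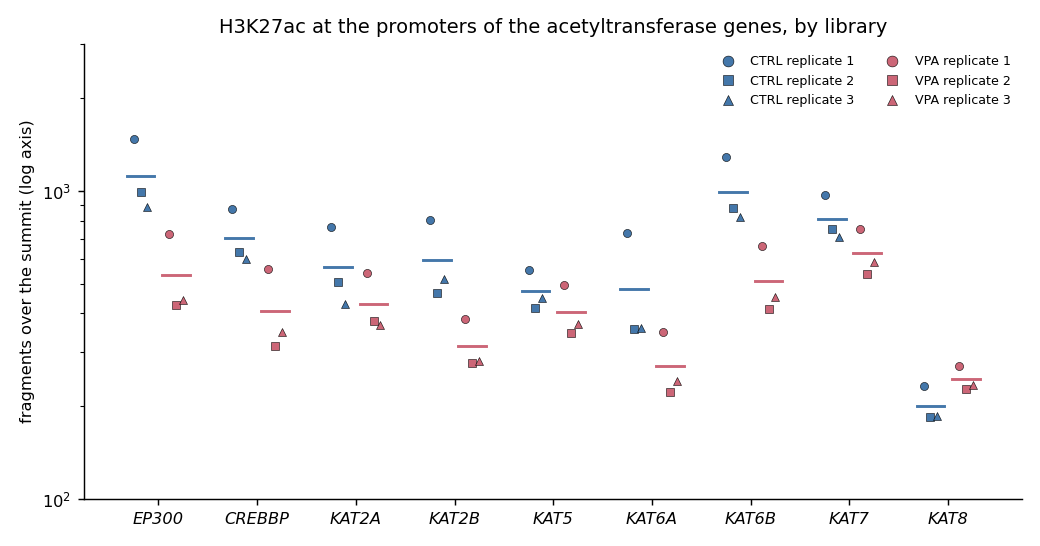
Fragments over the H3K27ac summit (y axis, log scale) at the promoter of each acetyltransferase gene (x axis). Each point is 1 library, shapes mark the replicate, and bars are means of 3 libraries. VPA lies below CTRL in every replicate number at 8 of the 9 genes, and above it at KAT8. The share of all promoter regions that did the same was not computed.

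EP300 had the tallest member promoter region in CTRL, while KAT7 was taller in every VPA library. The EP300 region lay at chr22:41090376-41097410. Its summits held 1477, 994 and 885 fragments in CTRL replicates 1, 2 and 3 and 724, 427 and 444 in VPA, so every VPA library lay below every CTRL library. The log2 change of the summit fragments over background coverage was -1.13 ± 0.27 (SE, n = 3 against 3, limma adjusted p = 0.011). Only 0.753% of the promoter regions tested had a lower change. At CREBBP, chr16:3878609-3882166, the summits held 874, 634 and 601 fragments in CTRL and 556, 314 and 348 in VPA. The treatments again did not overlap, and the log2 change was -0.87 ± 0.26 (SE, limma adjusted p = 0.0287), lower than at all but 7.23% of promoter regions.

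KAT2A, at chr17:42119932-42122746, had 763, 506 and 428 fragments in CTRL and 540, 378 and 367 in VPA. These ranges overlapped, and the change of -0.43 ± 0.26 (SE, limma adjusted p = 0.224) lay near the middle of all promoters, since 49.6% of them had a lower one. Its paralog KAT2B, at chr3:20038980-20041945, had 804, 467 and 518 fragments in CTRL and 384, 277 and 281 in VPA. Here the groups did not overlap, and the log2 change was -0.95 ± 0.26 (SE, limma adjusted p = 0.0183), lower than at all but 3.89% of promoter regions. The paralogs thus stood at different places among the promoters, and the difference between them was not tested.

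Among the MYST genes, KAT6A and KAT6B moved furthest. At KAT6A, chr8:42050557-42053206, CTRL summits held 731, 355 and 360 fragments and VPA summits 347, 222 and 241, a log2 change of -0.82 ± 0.28 (SE, limma adjusted p = 0.0421). At KAT6B, chr10:74821796-74828469, they held 1286, 880 and 820 fragments in CTRL and 664, 413 and 452 in VPA, a change of -1.02 ± 0.26 (SE, limma adjusted p = 0.0153). No VPA library reached a CTRL library at either gene. The KAT6B region also holds the start of ENSG00000272748, the KAT2A region that of HSPB9 and the KAT8 region that of ENSG00000262766, and the peaks of the paired starts cannot be told apart.

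The other MYST promoters changed less. KAT5, at chr11:65710353-65713587, had 552, 417 and 449 fragments in CTRL and 494, 345 and 370 in VPA (log2 change -0.28 ± 0.24 SE, limma adjusted p = 0.389). KAT7, at chr17:49787560-49789813, had 969, 754 and 710 in CTRL and 754, 539 and 589 in VPA (log2 change -0.42 ± 0.25 SE, limma adjusted p = 0.213). Both overlapped between treatments. KAT8, at chr16:31115817-31119017, was the weakest member promoter, with 232, 185 and 186 fragments in CTRL and 271, 228 and 234 in VPA. Its change was 0.24 ± 0.22 (SE, limma adjusted p = 0.419), and the VPA and CTRL ranges overlapped through replicate 1. Its summit stood above those of 19.3% to 22.3% of promoter regions in CTRL and of 31.6% to 42.5% in VPA. KAT7 stood above 90.5% to 92.2% of promoter regions in CTRL and 95.2% to 97.0% in VPA. EP300 stood above 96.6% to 98.2% in CTRL and 87.1% to 94.8% in VPA.

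VPA summits lay below every CTRL library at 5 of the 9 member promoters, EP300, CREBBP, KAT2B, KAT6A and KAT6B, where 31.1% of all promoter regions did so, and above every CTRL library at 0 of 9, against 2.7% of all promoter regions. On summit fragments over background coverage, the same 5 were called lower and 0 higher, beside 18.1% lower and 0.704% higher among all promoter regions. The same measure with the replicate numbers as pairs called 8 lower and KAT8 higher, beside 74.5% lower and 3.78% higher among all promoter regions. Most promoters were thus called lower in that fit.

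On fold enrichment, the measure of the primary test, the changes at the 9 promoters ran from -1.01 at KAT6A to 0.27 at KAT8, with a median of -0.47 against -0.27 for all promoter regions. Without pairing, limma called 0 of the 18407 H3K27ac regions with a peak in all 6 libraries (0.0%), although 301 had an unadjusted p under 0.05. The standard errors at the member promoters were 0.70 to 0.75 in that fit. Only KAT6A (-1.01, SE 0.70), KAT6B (-0.89, SE 0.74) and EP300 (-0.81, SE 0.73) had a change larger than its standard error. The labels do not say that equal replicate numbers belong together. The numbers were taken as pairs because same-numbered H3K27ac samples deviated together, which set replicate 1 apart. Replicates 2 and 3 also correlated across numbers (0.61 and 0.55, beside 0.59 and 0.59 within numbers). With the numbers as pairs 3040 regions were called. Of the member promoters, 4 fell in the paired fit: KAT6A (log2 change -1.01, SE 0.20, limma adjusted p = 0.00487), KAT6B (-0.89, SE 0.23, limma adjusted p = 0.0168), EP300 (-0.81, SE 0.20, limma adjusted p = 0.0125) and KAT2B (-0.74, SE 0.19, limma adjusted p = 0.017). None rose, and in all promoter regions 16.2% were called lower and 1.27% higher. CREBBP, called on summit fragments, was not called on fold enrichment (-0.47, limma adjusted p = 0.114 with pairs). KAT5 had opposite signs on the 2 measures, 0.14 for fold enrichment and -0.28 for summit fragments.

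With replicates 2 and 3 alone, 3 of the 9 member promoters were called lower and 0 higher, beside 10.4% and 0.499% of all promoter regions. Fold enrichment changed by -1.10 at KAT6A (limma adjusted p = 0.00949), -0.83 at EP300 (limma adjusted p = 0.0362) and -0.83 at KAT6B (limma adjusted p = 0.047). KAT2B had the same direction and lay outside the threshold, at -0.72 (limma adjusted p = 0.0694).

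**Figure D2:**
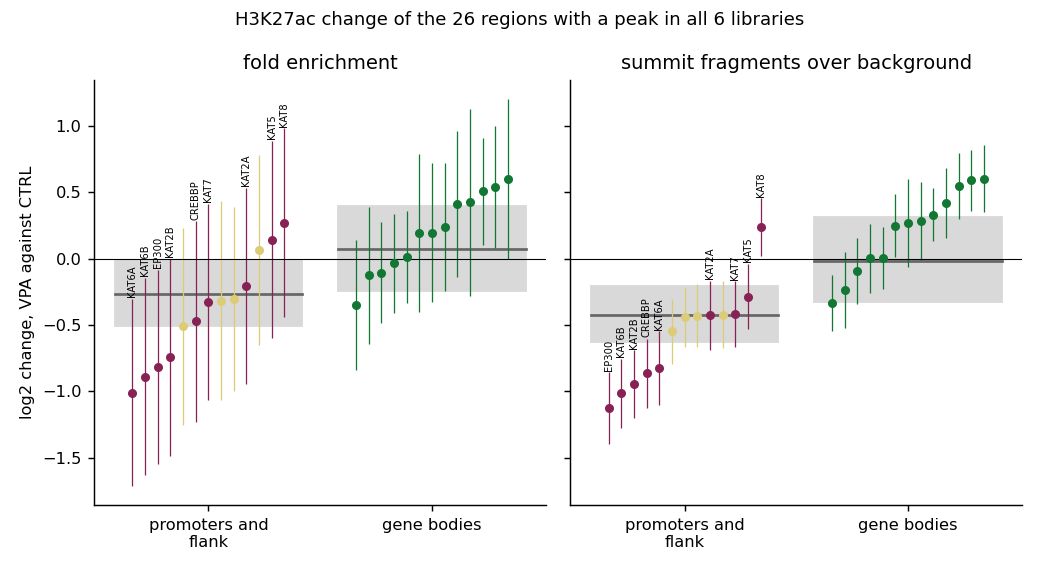
Log2 change of H3K27ac in VPA against CTRL (y axis) for the 26 member-window regions with a peak in all 6 libraries, on fold enrichment (left) and on summit fragments over background coverage (right). Points are regions with standard errors, the genes' own promoters labelled and purple, other promoters and the flank yellow, gene bodies green. Grey boxes span the middle quartiles and grey lines the medians of all promoter regions (left box of each panel) and of all other regions (right box). The purple points are mostly below 0, and the green points centre above 0.

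Promoter sequences were found in RefSeq (GRCh38.p14) for 7 of the 9 genes, from 250 bases before the transcript start to 50 after it. Their G and C content ran from 57.7% at KAT7 and 58.7% at KAT6B to 80.3% at KAT2B, beside a median of 58.7% over 33558 promoters, and their observed over expected CpG ratio was 0.625 to 0.972 beside a median of 0.578. The sequences of EP300 and CREBBP, the paralogs called lower on summit fragments without pairs, and of KAT5, called lower on that measure only with pairs, are shown 5′ to 3′ on the strand of the gene, with matches to the searched motifs in capitals.
EP300 promoter: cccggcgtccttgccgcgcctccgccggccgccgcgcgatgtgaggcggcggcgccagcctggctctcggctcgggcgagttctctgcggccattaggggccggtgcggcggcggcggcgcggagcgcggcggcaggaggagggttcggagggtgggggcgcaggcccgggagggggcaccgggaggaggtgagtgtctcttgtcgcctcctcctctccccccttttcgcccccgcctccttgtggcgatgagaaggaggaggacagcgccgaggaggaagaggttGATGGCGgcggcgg
CREBBP promoter: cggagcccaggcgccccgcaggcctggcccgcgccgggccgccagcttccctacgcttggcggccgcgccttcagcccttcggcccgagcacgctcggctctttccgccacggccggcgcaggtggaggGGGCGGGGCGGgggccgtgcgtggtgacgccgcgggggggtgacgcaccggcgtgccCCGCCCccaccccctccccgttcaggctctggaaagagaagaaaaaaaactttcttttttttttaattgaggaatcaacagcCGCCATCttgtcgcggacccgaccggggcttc
KAT5 promoter: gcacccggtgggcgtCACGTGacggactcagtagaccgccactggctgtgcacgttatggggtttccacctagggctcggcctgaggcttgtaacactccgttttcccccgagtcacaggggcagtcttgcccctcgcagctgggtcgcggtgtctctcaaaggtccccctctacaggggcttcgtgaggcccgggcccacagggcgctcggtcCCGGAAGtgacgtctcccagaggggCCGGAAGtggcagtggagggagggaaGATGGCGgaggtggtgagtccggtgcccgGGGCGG

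The EP300 sequence is chr22:41092342-41092641 (plus strand), CREBBP chr16:3880664-3880963 (minus strand) and KAT5 chr11:65712002-65712301 (plus strand). GATGGCG, the core bound by YY1, was in 3 of the 7 sequences, EP300, CREBBP and KAT5, and in 4.17% of all promoters. With the transcript start counted as 0, its first base lay at 36 in EP300, at 15 in KAT5 and at 18 in CREBBP, where it is on the opposite strand. The GC box GGGCGG was in 4 of 7 and in 45.0% of all promoters. CREBBP held 3 copies, at -121, -116 and -64, of which the first 2 overlap. CCGGAAG, a core of ETS factors, was in 2 of 7 and in 10.2% of all, with 2 copies in KAT5 at -36 and -11. The E-box CACGTG was in 1 of 7 (KAT5, at -235) and in 7.15% of all, and CCAAT was in 1 of 7 (KAT6B) and in 34.4% of all. GCATGCGC (NRF1), TATAAA and TGACGTCA (the cyclic AMP response element) were in 0 of 7, and in 2.96%, 11.6% and 1.86% of all promoters. Both strands were searched, and a match is a description of the letters only.

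The windows also held promoters of neighbouring genes. TRAP1, a mitochondrial chaperone gene downstream of CREBBP, had summits of 514, 362 and 318 fragments in CTRL and 403, 260 and 258 in VPA. RNASEH2C, which encodes a subunit of RNase H2 and lies beyond the 3′ end of KAT5, had 679, 564 and 517 against 521, 379 and 354. BCKDK, the kinase of the branched-chain ketoacid dehydrogenase, lies upstream of KAT8 and had 504, 431 and 375 against 413, 304 and 293. Each was lower in VPA in 3 of 3 replicate numbers, a share not computed for all promoters, with ranges that overlapped. With a region downstream of KAT8 (331, 247 and 207 against 222, 181 and 186), their log2 changes on summit fragments ran from -0.55 to -0.42. Of these 4, 0 were called on fold enrichment, with pairs or without, and all 4 were called lower on summit fragments with pairs, a fit that called 74.5% of promoter regions and 27.8% of the others lower.

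Of the 82 H3K27ac regions, 65 lay in the gene bodies and 63 of all summits were intronic. A peak in more VPA than CTRL libraries was seen at 42 of the 82 regions, beside 51.4% of all merged regions, and the reverse at 8 of the 82, beside 7.64%. These counts are close to the share over all regions. The peaks in the 9 windows numbered 46, 47 and 45 in CTRL replicates 1, 2 and 3 and 63, 54 and 65 in VPA. Regions with more VPA than CTRL libraries numbered 14 of 24 at KAT6B, 10 of 18 at CREBBP and 7 of 12 at KAT6A, the windows with the most regions. Regions with a peak in fewer than 6 libraries, other than the 5 seen only in VPA, were low, at 13 to 64 summit fragments.

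CREBBP was the only member whose VPA and CTRL peak numbers did not overlap. Its window held 11, 8 and 6 such peaks in the CTRL libraries, against 13, 13 and 12 in those of VPA (8.33 ± 2.52 against 12.7 ± 0.577, mean ± SD, n = 3). The exact two-sided permutation p was 0.1, the smallest that 3 against 3 can give, and 0.25 with the replicate numbers as pairs, again the smallest possible. All VPA libraries lay above all CTRL libraries in 12.1% of the 16034 gene windows with a peak, and below them in 0.175%. Among the members it was 1 of 9. With all lists cut to equal length, the mean difference at CREBBP turned from 4.33 to -0.333 peaks and that at KAT6B from 5.67 to -0.667.

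KAT6B had the most peaks, with 17, 15 and 15 for CTRL against 25, 16 and 23 for VPA (exact permutation p = 0.2, n = 3 against 3). At KAT6A the numbers were 2, 6 and 6 against 7, 8 and 6 (exact permutation p = 0.3, n = 3 against 3). The low CTRL value at KAT6A came from replicate 1. EP300 had 6, 5 and 5 against 5, 5 and 7, KAT2B 3, 4 and 5 against 4, 4 and 5, and KAT8 3, 4 and 4 against 4, 3 and 6. KAT2A had 1 to 3 peaks, KAT7 1 or 2, and KAT5 had 2 in every library. These overlapped between treatments in all 6 genes.

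**Figure D3:**
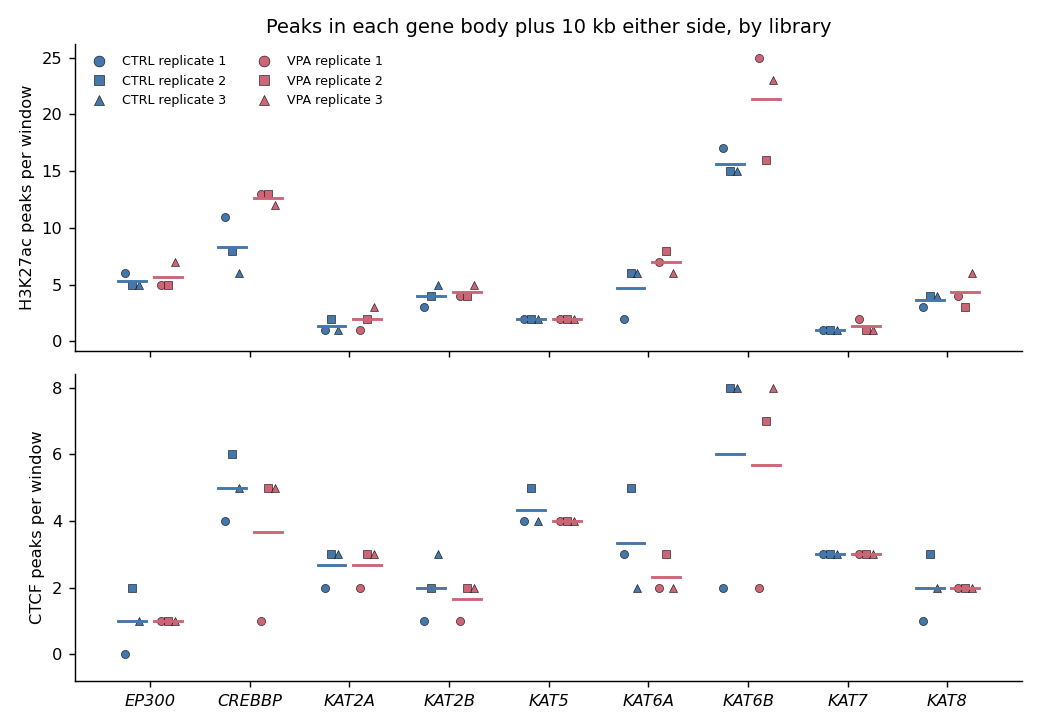
Number of H3K27ac peaks (top, y axis) and CTCF peaks (bottom, y axis) in the window of each gene (x axis), by library. Shapes mark the replicate and bars are means of 3 libraries. CREBBP is the only gene whose VPA and CTRL points do not overlap for H3K27ac, and no gene separates for CTCF.

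The covered length was also higher in VPA at these genes. H3K27ac peaks covered 14.9, 18.5 and 16.4 kb of the KAT6B window in CTRL and 23.4, 31.7 and 26.4 kb in VPA. At CREBBP they covered 9.01, 11.9 and 7.69 kb in CTRL and 14.4, 19.7 and 16.5 kb in VPA. The VPA means were 1.64-fold and 1.77-fold the CTRL means, beside a median ratio of 1.29 over all windows with CTRL peaks. KAT5 (4.01, 4.97 and 5.21 kb against 5.61, 6.79 and 6.34 kb) and KAT7 (1.37, 1.64 and 1.43 kb against 2.08, 2.23 and 2.19 kb) also had no overlap between treatments. The VPA libraries all lay above the CTRL libraries in 4 of 9 member windows and in 31.6% of all windows. At EP300, covered length overlapped between treatments: replicate 1 had 4.87 kb in CTRL and 4.81 kb in VPA while replicates 2 and 3 had 6.25 and 6.29 kb in CTRL and 9.71 and 9.76 kb in VPA. Promoter summits were lower in VPA at KAT5, KAT7, CREBBP and KAT6B, while the acetylated length of their windows was higher. Most promoters and most windows went the same 2 ways, with a median log2 change of -0.42 and a median ratio of 1.29. The summits of KAT5 and KAT7 overlapped between treatments and were not called without pairs. The share of all genes with both traits was not computed.

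Within the regions that had a peak in all 6 libraries, covered length was called longer in 0 of 26 without pairing, beside 0.114% of all 18407. With the replicate numbers as pairs, 6 of 26 were longer and none was shorter, beside 11.9% longer among all. They were 5 gene-body regions, of KAT6B (3 regions) and CREBBP (2 regions), and the BCKDK promoter. Those of KAT6B were chr10:74920919-74926612, chr10:74935403-74939158 and chr10:74946666-74949719 (limma adjusted p = 0.0313, 0.0291 and 0.0458 with pairs). One of the CREBBP regions was chr16:3837911-3839891 (log2 change 0.75, limma adjusted p = 0.0438 with pairs). The largest change, in intron 2 of CREBBP at chr16:3820089-3821517, was 1.62 on the log2 scale (limma adjusted p = 0.0241 with pairs, SE 0.19, and 0.0805 without, SE 0.31).

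In the body of CREBBP, 7 regions lay in intron 1, 8 in intron 2 and 1 in exon 2, all within 60.3 kb of the start. The region at chr16:3820089-3821517 had summits of 22, 32 and 34 fragments in CTRL and 41, 50 and 40 in VPA, with no overlap. One at chr16:3853016-3854704 in intron 1 had a peak in 1 CTRL library, with 30 fragments, and in all 3 VPA libraries, with 49, 57 and 46. Regions of intron 1 with summits 6.37 and 7.82 kb from the start likewise had a peak in 1 CTRL and 3 VPA libraries, at 19 to 33 fragments. No region of CREBBP had a peak in more CTRL than VPA libraries, beside 7.64% of all merged regions. More VPA libraries had one at 10 of its 18, close to the 51.4% of all merged regions.

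In the body of KAT6B, 18 regions lay in intron 3, with summits from 23.3 to 132.2 kb from the start. Of those, 12 had a peak in more VPA than CTRL libraries, beside 51.4% of all merged regions. The reverse held for 2, beside 7.64% of all. The strongest region outside the promoter was in intron 1, 6.43 kb from the start at chr10:74830810-74835530. Its summits held 143, 137 and 142 fragments in CTRL and 189, 183 and 177 in VPA, with no overlap and little spread. The log2 change was 0.33 ± 0.20 (SE, limma adjusted p = 0.224), and 0.43 on fold enrichment (limma adjusted p = 0.149 with pairs). In the same 6 libraries the KAT6B promoter, whose summit lay at -1.03 kb, was lower in VPA. In intron 3, chr10:74920919-74926612 had 32, 52 and 69 fragments in CTRL and 61, 82 and 89 in VPA, and chr10:74935403-74939158 had 34, 46 and 33 against 48, 70 and 58. Each was higher in VPA in 3 of 3 replicate numbers, and the first overlapped between treatments. The share of all regions away from promoters higher in 3 of 3 was not computed.

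**Figure D4:**
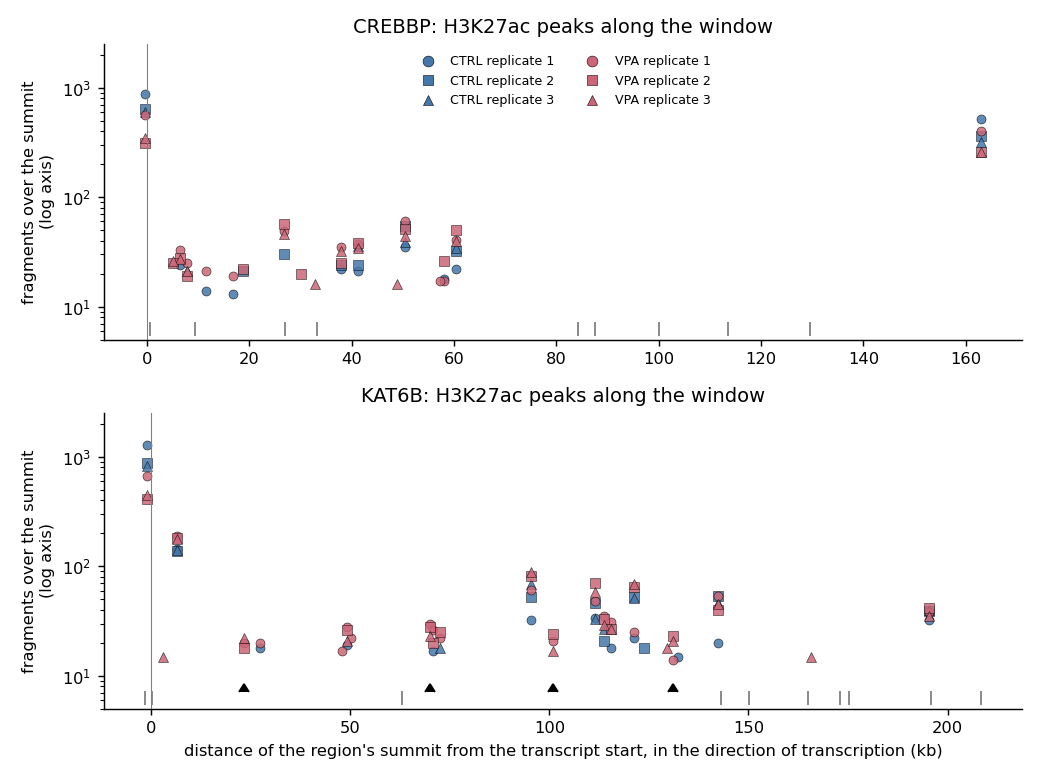
Fragments over the H3K27ac summit (y axis, log scale) of each region in the windows of CREBBP (top) and KAT6B (bottom), by distance from the transcript start (x axis, kb, positive into the gene). Points are libraries that had a peak, so a library without one has no point. Black triangles mark regions seen in all 3 VPA libraries and in no CTRL library, and grey ticks mark CTCF regions. The promoters reach 1286 fragments at KAT6B and 874 at CREBBP, and the highest intronic point is 189.

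Over the 13 gene-body regions with a peak in all 6 libraries, 10 had a positive change on summit fragments and 3 a negative one, with a median of 0.27 (range -0.33 to 0.60) beside -0.02 for all regions away from promoters. Summits in every VPA library lay above every CTRL library in 3 of 13, those named above in CREBBP intron 2, KAT6B intron 1 and the second of KAT6B intron 3, and this held for 20.9% of all regions elsewhere. They lay below in 1 of 13, in intron 1 of KAT2B at chr3:20066184-20068385 (58, 70 and 66 fragments in CTRL, 53, 56 and 50 in VPA), and in 14.5% of all. On fold enrichment with pairs 0 of 13 was called, beside 9.06% higher and 6.31% lower in all regions away from promoters. On summit fragments, 0 of 13 was called without pairs, beside 8.22% higher and 7.41% lower, and with pairs 4 were higher and 0 lower, beside 22.6% higher and 27.8% lower. Those 4 were CREBBP chr16:3820089-3821517 and the 3 KAT6B regions with values above.

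Regions with a peak in all 3 VPA libraries and in 0 CTRL library numbered 5, all intronic, and 0 had the reverse. Among all merged regions 4.12% were of the first kind and 0.139% of the second. Of the 5, 4 lay in intron 3 of KAT6B and 1 in intron 2 of KAT6A. All were weak, with fold enrichments of 2.61 to 5.86 and 14 to 30 summit fragments. The KAT6B regions were chr10:74849003-74850101 (20, 18 and 22 fragments in VPA replicates 1, 2 and 3), chr10:74896230-74896737 (30, 28 and 23), chr10:74927117-74927726 (21, 24 and 17) and chr10:74956675-74958174 (14, 23 and 21). The KAT6A region, chr8:41994984-41996204, had 24, 28 and 27. A CTRL library without a peak there is below the peak caller's threshold and not necessarily at background. When the lists were first cut to equal length, 0 regions were VPA only and 1 was CTRL only, beside 540 and 253 over all merged regions. With replicates 2 and 3 alone, 12 of the 82 were VPA only and 1 was CTRL only, beside 6296 and 424 of all 55382.

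CTCF in the same windows did not separate by treatment. The 9 windows held 20, 37 and 31 CTCF peaks in CTRL replicates 1, 2 and 3 and 18, 30 and 30 in VPA, so replicate 1 was low in both. All VPA libraries lay above all CTRL libraries in 0 of 9 windows and below them in 0 of 9, beside 0.39% and 0.875% of 16918 windows with a CTCF peak. Of the 44 regions, 14 had a peak in all 6 libraries, and 0 were seen only in VPA or only in CTRL, beside 0.186% and 0.326% of all merged CTCF regions. A peak in more CTRL than VPA libraries was seen at 16 of the 44 and the reverse at 6. The shares of all merged CTCF regions in these 2 classes were not computed, so the counts are a description only. Limma on fold enrichment called 0 of the 27794 CTCF regions with a peak in all 6 libraries (0.0%), with 254 at an unadjusted p under 0.05. The changes at the 14 member regions ran from -0.79 to 0.36, 6 above and 8 below 0, with standard errors of 0.37 to 0.85. These errors are not a limit of detection. The CTCF fits recovered few or none of the changes put into simulated data, so changes larger than these errors may also have been missed.

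The tallest CTCF summits were at 2 places. One had its summit at -0.328 kb from the start of KAT5, at chr11:65711311-65712391, with 2579, 1348 and 1143 fragments in CTRL and 2597, 1501 and 1210 in VPA. The other lay upstream of KAT8, at -11.8 kb, inside the BCKDK region, at chr16:31105276-31106305, with 2326, 1140 and 949 in CTRL and 3493, 1064 and 963 in VPA. Both overlapped between treatments. Both regions also carried H3K27ac in all 6 libraries.

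Promoter CTCF with a peak in all 6 libraries was also found at CREBBP (724, 378 and 287 fragments in CTRL, 1171, 313 and 284 in VPA), KAT2B (729, 350 and 297 against 980, 336 and 257) and KAT6B (278, 152 and 117 against 345, 91 and 82). At CREBBP and KAT2B it spread over 1855 and 2073 bp. At these promoters, replicate 1 was the highest library of both treatments. EP300 had a smaller promoter peak in 2 CTRL libraries (66 and 51 fragments) and in all 3 VPA libraries (148, 42 and 55). KAT6A and KAT8 each had a promoter peak in 1 CTRL library only, at 39 and 32 fragments, and the windows of KAT2A and KAT7 had none at the promoter.

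Inside and beside the genes, strong CTCF regions lay in intron 11 of KAT2A (chr17:42116297-42117610, with 911, 719 and 661 fragments in CTRL and 1250, 728 and 600 in VPA), in intron 16 of KAT6B (chr10:75021924-75023041, 104, 617 and 569 against 69, 526 and 523), upstream of KAT5 at -5.8 kb (chr11:65705941-65707148, 857, 709 and 630 against 95, 676 and 601) and downstream of KAT7 (chr17:49843346-49844702, 331, 500 and 492 against 80, 584 and 497). Both replicate 1 libraries were low in KAT6B, and VPA replicate 1 was far below the other 5 libraries at the last 2 places. Without replicate 1 of both treatments, their changes on fold enrichment turned from -0.79 to 0.55 upstream of KAT5 and from -0.44 to 0.44 downstream of KAT7, and neither was called in any fit. A region in intron 2 of KAT6A, chr8:41994778-41996019, had 24, 195 and 193 fragments in CTRL and 37, 40 and 173 in VPA, and it overlaps the VPA-only H3K27ac region of that gene.

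**Figure D5:**
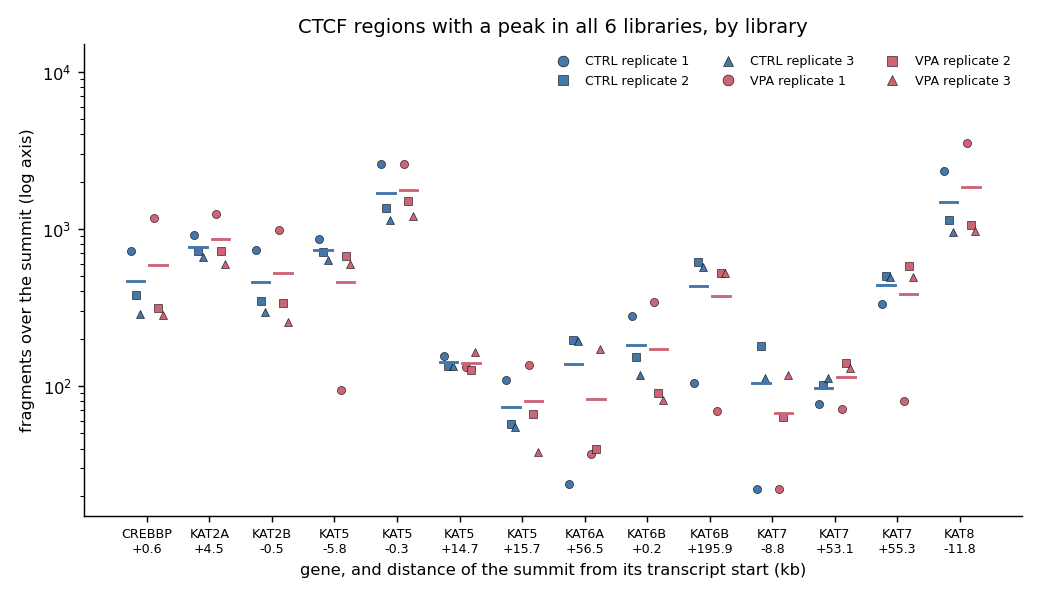
Fragments over the CTCF summit (y axis, log scale) of the 14 CTCF regions with a peak in all 6 libraries, named by gene and by distance of the summit from its transcript start in kb (x axis). Points are libraries, shapes the replicate, and bars means of 3 libraries. CTRL and VPA points overlap at every region, and replicate 1 is often the highest or the lowest point.

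The CTCF core motif, CCA, any 2 bases, AG, any 2 bases and GGC, was searched on both strands within 50 bp of each region's highest summit. It was found in 5 of the 44 member regions (11.4%) and in 15.3% of all merged CTCF regions, and 2 kb away it was found in 1 of 44 (2.27%) and in 0.349% of all. Among regions with a peak in all 6 libraries it was found in 3 of 14 (21.4%) and in 24.2% of all. With 1 mismatch allowed, 20 of 44 (45.5%) and 50.9% of all had a site, beside 9.09% and 6.70% at 2 kb. Sites of a selection of the regions described above are shown in hg38 with 20 bases on either side. They read 5′ to 3′ on the strand of the motif, with the 12-base site in capitals. The CTCF regions at the promoters of CREBBP, KAT2B and KAT6B and the one described in intron 2 of KAT6A had no exact site and are not shown. The KAT8 sequence is centred on the summit and had no site even with 1 mismatch.
KAT5 upstream: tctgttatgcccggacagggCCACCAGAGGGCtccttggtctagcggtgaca
KAT2A gene body: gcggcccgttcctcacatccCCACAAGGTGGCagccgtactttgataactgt
KAT6B gene body: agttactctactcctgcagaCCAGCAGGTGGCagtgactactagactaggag
EP300 promoter: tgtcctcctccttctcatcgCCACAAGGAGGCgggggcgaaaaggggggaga
KAT5 promoter: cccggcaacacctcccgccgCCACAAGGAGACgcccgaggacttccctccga
KAT7 downstream: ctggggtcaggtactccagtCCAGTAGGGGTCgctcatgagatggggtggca
KAT8 upstream: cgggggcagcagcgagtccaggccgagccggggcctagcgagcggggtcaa

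The first 4 match the core exactly and lie at chr11:65706390-65706441 (plus strand), chr17:42116870-42116921, chr10:75022456-75022507 and chr22:41092556-41092607 (minus strand for these 3). The KAT5 promoter site, chr11:65711894-65711945 (plus strand), and the KAT7 site, chr17:49843922-49843973 (minus strand), have 1 mismatch each. The KAT8 sequence is chr16:31105809-31105859. The KAT7 site was centred 1.5 bp from the summit and the KAT5 promoter site -4.5 bp from it, on the plus coordinate. The 2 tallest CTCF summits had no exact core, and neither did most of the lower ones with a peak in all 6 libraries. Of those 14 regions 3 had it, upstream of KAT5 and within KAT2A and KAT6B, beside 24.2% of all such regions. The fifth exact site lay in KAT6A, in a region with a peak in replicate 1 only, at 17 fragments in CTRL and 31 in VPA.

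Where the marks met, 18 of the 82 H3K27ac regions shared at least 1 bp with a CTCF region. Of the 14 CTCF regions with a peak in all 6 libraries, 8 shared bases with an H3K27ac region. Any merged region of the other antibody counted, also one with a peak in 1 library. The shares over all merged regions were not computed, so these counts are a description only. In intron 16 of KAT6B the CTCF region overlapped an H3K27ac region seen in all 6 libraries, whose summits of 32, 39 and 40 fragments in CTRL and 38, 42 and 35 in VPA overlapped between treatments.

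For comparison, the promoters of 53 other genes were taken, listed as subunits of the acetyltransferase complexes, as other acetyltransferases or, for ACLY and ACSS2, as enzymes that make acetyl-CoA. All 53 had a promoter region with a peak in all 6 libraries. On fold enrichment 0 were called without pairs, and with pairs 13 were lower and 0 higher, beside the shares of 16.2% and 1.27% for all promoters. On summit fragments 22 of 53 were lower and 0 higher without pairs, beside 18.1% and 0.704% of all promoters, and 48 were lower and 0 higher with pairs, beside 74.5% and 3.78%. The median log2 change was -0.64 (range -0.98 to 0.20), beside -0.42 for all promoter regions. The list was described only, and its difference from other promoters was not tested.

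The largest falls in the paired fit were at the scaffold gene EPC1 of the TIP60 complex (944, 719 and 635 fragments in CTRL, 491, 362 and 349 in VPA, log2 change of fold enrichment -1.24, limma adjusted p = 0.00239), and at TAF5L of SAGA (1130, 693 and 694 against 628, 429 and 463, limma adjusted p = 0.003). The NSL subunits KANSL3 and KANSL1, partners of MOF, had changes of -1.10 (limma adjusted p = 0.00289) and -1.04 (limma adjusted p = 0.00366). KANSL1 summits went from 1639, 1106 and 992 fragments to 838, 538 and 578. MBIP of ATAC (-0.83), the SAGA deubiquitinase USP22 (-0.80), the acetyltransferase of newly made histones HAT1 (-0.80) and the TFIIIC subunit GTF3C4 (-0.78) completed the 8 largest among the partners called. ING4, a subunit of the HBO1 complex named after its values were seen, had the highest change of the 53 on summit fragments, 0.20, with 81, 100 and 80 fragments for CTRL and 94, 114 and 102 for VPA, and was not called (limma adjusted p = 0.0958 on fold enrichment with pairs).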

How the data were processed

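ChIP-seq libraries of HEK293T were prepared for H3K27ac and CTCF, untreated or with 1 mM VPA, 3 replicates each. The authors aligned reads to hg38 with Bowtie2 and called peaks in each library with MACS (MACS3 3.0.0a7 in the submitters' processing notes) at a q-value threshold of 0.05, and the deposited narrowPeak lists hold, in the standard columns of that format, fold enrichment at the summit (a ratio), −log10 p-values and −log10 q-values as deposited, and an integer score. Of 18 samples, the 12 peak lists (506359 peaks on chromosomes 1 to 22) were used and the 6 input samples were not analysed here. Read totals are not in such lists, so depth is known only as background coverage.

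From these values the summit fragments were recovered as whole numbers (within 0.05), merged regions were formed, and limma 3.58.1 (R 4.3.3, trend) was fitted to log2 values over all regions with a peak in 6 of 6 libraries, with Benjamini-Hochberg adjustment over all of them and a threshold of 0.05. Peak numbers per window were compared with exact two-sided permutation tests. Promoters are regions within 1 kb of the start of the Ensembl canonical transcript (GENCODE 44). Sequences were read with pysam 0.24.0 from hg38, and promoters from RefSeq. The limma fits, the exact test and the motif search were tested on simulated data, where the limma fits without pairs and those of CTCF recovered few or none of the changes put in, so their counts of 0 do not show that nothing changed. Same-numbered H3K27ac samples deviated together (correlation of deviations 0.87, 0.59 and 0.59), so their numbers were taken as pairs, although replicates 2 and 3 also correlated across numbers (0.55 and 0.61).

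The text names the 9 genes with their promoters, every member region called or seen in only one treatment, and up to 8 partner genes with the largest called change. Other regions with printed values were chosen after their values were seen. The members, lists and tests were chosen with earlier results of these data known. Alternatives are given in the closing section.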

Additional observations from a re-analysis of the deposited data

How the results depend on the processing

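Results at the 9 windows depended on the measure, the pairing and replicate 1. Limma on H3K27ac fold enrichment called 0 regions without pairs and in each fit that left out 1 library. It called 3040 with the replicate block, 1836 with replicates 2 and 3 alone, 3200 on summit fragments over background coverage, 12128 on that measure with the block and 2765 with the block and each library centred on its median, of which 4, 3, 5, 17 and 5 lay in the windows. The first alternative here and the third were planned, and the others were chosen after seeing the data. Covered length was called for 21 regions, 41 after centring, 2216 with the block (6 in the windows), 1449 with replicates 2 and 3 alone and 0 to 2 when 1 library was left out. The summed difference in H3K27ac peak number of 14.7 became 5 at −log10 q of at least 10, 24.7 with 50 kb flanks and -2 with equal list lengths, where CREBBP had -0.333 and KAT6B -0.667. The VPA lists are longer than the CTRL lists, and the part of list length in the peak numbers was not tested beyond this.

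VPA-only H3K27ac regions numbered 5, and 0 with equal list lengths, 3 where peaks had to cover 0.5 of the region, 12 with replicates 2 and 3 alone and 5 to 9 with 1 library left out. Over all merged H3K27ac regions these counts were 2284, 540, 2570, 6296 and 2840 to 5613. CTRL-only member regions numbered 0, and 1 with equal list lengths or with replicates 2 and 3 alone, and 0 to 1 with 1 library left out. Over all merged H3K27ac regions they numbered 77, 253 with equal list lengths, 424 with replicates 2 and 3 alone and 104 to 342 with 1 library left out. For CTCF both member counts were 0, each 1 with replicates 2 and 3 alone, and 0 to 1 with 1 library left out. Over all merged CTCF regions 130 were VPA only and 228 CTRL only, and 882 and 1950 with replicates 2 and 3 alone. The CTCF motif was found in 20 member regions with 1 mismatch.

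Leaving out 1 library turned the sign of fold enrichment at H3K27ac promoters of CREBBP (range -0.99 to 0.13), KAT2A (-0.62 to 0.32), KAT5 (-0.33 to 0.71), KAT7 (-0.87 to 0.12) and KAT8 (-0.49 to 0.78), with the reversed values 0.129 at CREBBP without VPA replicate 1, 0.318 and 0.0746 at KAT2A without VPA replicate 1 and CTRL replicate 3, -0.331, -0.150 and -0.130 at KAT5, 0.121 at KAT7 and -0.487 and -0.199 at KAT8. It did so for CTCF promoters of KAT2B (-0.12 to 0.46), KAT5 (-0.012 to 0.49) and KAT6B (-0.57 to 0.13). On summit fragments KAT5 was -0.28, called lower with the block (limma adjusted p = 0.0014) and not called without it. None of these reversed values was past the threshold on fold enrichment. EP300, KAT2B, KAT6A and KAT6B stayed below 0 in every H3K27ac fit of fold enrichment or summit fragments, but with 1 library left out ran from -1.32 to -0.33, -1.23 to -0.24, -1.43 to -0.68 and -1.45 to -0.27, nearest to 0 without VPA replicate 1 and farthest without CTRL replicate 1. The covered length of these promoter regions changed by 0.15, 0.15, 0.064 and 0.0096 on the log2 scale and was not called. EP300 was -0.29 on the mean fold of a library's peaks. The cause of these changes was not tested.

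Same-numbered CTCF samples did not deviate together (correlations 0.34, -0.045 and 0.48), and the block gave 0 CTCF calls, with 598 regions at an unadjusted p under 0.05. Peak lists hold no counts below the calling threshold, which limits what can be said of a library without a peak.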
